A study of Arabidopsis thaliana with 12 samples.

Results

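The genes described here are 6 members of the Arabidopsis thaliana circadian clock and COR27, which responds to cold and to the clock, 7 genes out of 1618 genes and transposable elements that appear in any of 3 deposited tables. They were selected on measured values: each is named by its identifier and each is present, with a q-value below 0.05, in 1 or more of the authors' tables that set a mutant against the wild type. They are CCA1 (AT2G46830), LNK1 (AT5G64170), LNK2 (AT3G54500), PRR5 (AT5G24470), COR27 (AT5G42900), PRR3 (AT5G60100) and FKF1 (AT1G68050). Their presence in a table and the direction there are therefore a description and not a test.

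RNA-seq of rRNA-depleted total RNA was carried out on whole seedlings grown for 2 to 3 weeks in long days. The 12 samples are 3 nrpe1, 3 swi3b +/- (a heterozygote), 3 idn2-1 and 3 Col-0, where Col-0 is the wild type set against every mutant. NRPE1 encodes the largest subunit of RNA polymerase V, SWI3B a core component of SWI/SNF nucleosome remodellers and IDN2 a double-stranded RNA-binding factor of the RNA-directed DNA methylation pathway. The nrpe1 and swi3b alleles are not named in the labels. No treatment is named for any group, and no harvest hour is given for any sample. A genotype difference in the level of a clock transcript and a difference in the time of day at harvest therefore cannot be told apart here. Each deposited table holds 1 pooled RPKM value per genotype (reads scaled by transcript length and by library size), so no spread between replicates and no depth can be given. A gene is called listed, higher or lower below where the authors' deposited table gives it a q-value under 0.05. Values for genes outside the tables are not analysed here, and the highest q among the members was that of PRR3 in nrpe1 (q = 0.0142 in the authors' deposited table).

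The plant clock is a set of transcription factors that repress or activate each other in turn over the day. CCA1, a MYB repressor made around dawn, binds the evening element in promoters of genes that peak later, and LNK1 and LNK2, which peak in the morning, are coactivators that work with RVE-type MYB factors. The pseudo-response regulators follow through the day: PRR5 represses CCA1, and PRR3 protects the evening repressor TOC1 from degradation. FKF1 is a blue-light-sensing F-box protein of the late afternoon that removes repressors of flowering in long days. COR27, induced by cold and by light and highest in the afternoon and evening, represses other clock genes including PRR5.

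To describe what the members share beyond their level, the bases around the annotated gene starts were read from the RefSeq annotation of TAIR10.1 and searched for 4 motifs on both strands. The motifs were the evening element (AAAATATCT), the CCA1 binding site (AAAAATCT), the G-box (CACGTG), which is bound by bHLH and bZIP factors, and GGATAAG. The window ran from 250 bases before the gene start to 50 after it, and matches are given for 6 of the members, all but COR27. The stretches below are shown because they hold the matches described after them. They run 5′ to 3′ along the gene's own strand, and capitals mark matches in either orientation. They lie at chr2:19245391-19245600 (plus strand) for CCA1, chr5:25676814-25676883 (minus strand) for LNK1, chr3:20179041-20179070 (minus strand) for LNK2, chr5:8358722-8358751 (minus strand) for PRR5 and chr1:25508439-25508648 (plus strand) for FKF1.
CCA1: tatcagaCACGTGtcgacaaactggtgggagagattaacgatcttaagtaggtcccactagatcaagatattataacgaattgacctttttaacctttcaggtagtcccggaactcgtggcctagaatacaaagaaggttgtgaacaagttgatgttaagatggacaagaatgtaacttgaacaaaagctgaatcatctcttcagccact
LNK1: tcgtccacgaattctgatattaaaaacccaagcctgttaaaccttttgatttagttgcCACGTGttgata
LNK2: gttctctctcagccactcgtttggCACGTG
PRR5: attcgctAGATTTTTtctAGATATTTTctt
FKF1: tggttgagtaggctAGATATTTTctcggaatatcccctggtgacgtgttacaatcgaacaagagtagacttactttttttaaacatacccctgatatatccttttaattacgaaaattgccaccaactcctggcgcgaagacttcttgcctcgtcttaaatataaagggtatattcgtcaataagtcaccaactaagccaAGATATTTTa

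The 3 morning members each had a G-box and no evening element. With the base before the gene start counted as -1, the G-box began at -193 in CCA1 and at -2 in LNK1. In LNK2 it began at 25 within the transcript. Of the later members, PRR5 and FKF1 had an evening element and no G-box in the same window, and PRR3 had no match to any of the 4 motifs. FKF1 had evening elements beginning at -186 and at 1, and PRR5 had an evening element beginning at -187 and a CCA1 binding site beginning at -198, which do not overlap. Over all 27444 protein-coding genes, 2.82% had an evening element in this window, 7.88% a CCA1 binding site, 7.68% a G-box and 3.22% GGATAAG. The deposited locus of PRR5 begins 327 bases before the annotated gene start, so the PRR5 matches lie inside the locus whose reads were counted. That of LNK2 begins 43 bases after the annotated start, so its G-box lies before that locus. When the 1000 bases before the start were searched instead, the G-box of CCA1 was the 1 left, so these counts of the G-box depend on the window. A match is a description of the letters and was not tested as a binding site.

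**Figure D1:**
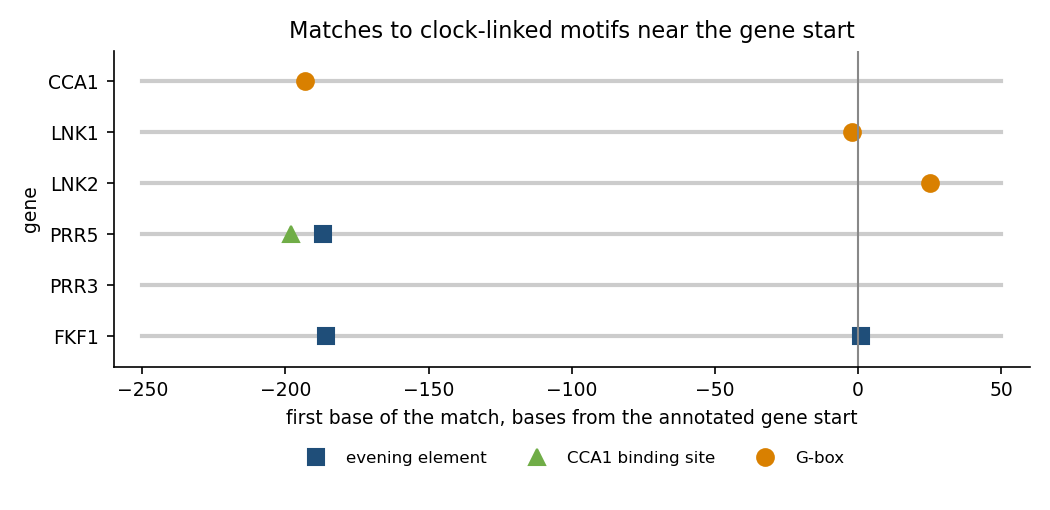
Matches to 3 motifs in the window from 250 bases before to 50 bases after the annotated gene start of 6 members (horizontal axis, bases from the start; 1 row per gene, morning genes at the top). Orange circles (G-box) are in the rows of CCA1, LNK1 and LNK2, dark blue squares (evening element) in those of PRR5 and FKF1, and PRR3 has none.

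Setting nrpe1 against Col-0 addresses which genes differ in level, directly or indirectly, in a mutant of the largest subunit of RNA polymerase V. In nrpe1 the 3 morning members were higher and COR27 and PRR3 were lower, so 5 of the 7 were listed. Features listed as higher made up 1.04% of the 27012 tested in this comparison and features listed as lower 0.848%, and since these calls chose the members nothing is read from the difference. The transcript of CCA1, the dawn repressor, was at 4.74 RPKM in nrpe1 against 2.24 RPKM in Col-0 in the authors' deposited table, 2.11-fold higher (q = 0.000812). LNK1 was at 7.76 RPKM in nrpe1 against 3.98 RPKM in Col-0 in the authors' deposited table, 1.95-fold higher (q = 0.000274). For LNK2 the authors' deposited table gives 64.4 RPKM in nrpe1 and 40.1 RPKM in Col-0, a 1.60-fold difference (q = 0.00617). By these values the 2 coactivators differ widely in level, LNK2 being the more abundant per length in both genotypes, and LNK1 had the larger fold. The deposited locus of LNK2 overlaps other genes, described below, whose reads may not be separate from its value.

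COR27 had the largest change of any member in either table. It was at 12.9 RPKM in nrpe1 against 41.3 RPKM in Col-0 in the authors' deposited table, 31.3% of the Col-0 level (q = 0 as printed there). That is the 12th largest fold of the 184 protein-coding genes listed as lower with both values above 0, whose median fold was 1.84. PRR3, the protector of TOC1, was at 3.86 RPKM in nrpe1 and 6.68 RPKM in Col-0 in the authors' deposited table, 1.73-fold lower (q = 0.0142), which places it 113th of the same 184. CCA1, LNK1 and LNK2 stood 75th, 104th and 204th among 239 listed higher genes by fold, with a median fold of 1.89. CCA1 and LNK1 were thus above the median of the listed rises, and LNK2 and PRR3 below the medians of their directions.

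The order of levels among the members differed between the genotypes. CCA1 was at 1.23 times the RPKM level of PRR3 in nrpe1 and at 0.336 times in Col-0, from the values of the authors' deposited table. LNK1 was at 2.01 times the level of PRR3 in nrpe1 and at 0.595 times in Col-0 in the authors' deposited table. LNK2 and COR27, nearly equal in Col-0, stood 4.99 to 1 in nrpe1 (0.971 to 1 in Col-0, RPKM in the authors' deposited table). These ratios restate the changes above as levels and carry no test of their own.

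Setting swi3b +/- against Col-0 addresses which genes differ in level, directly or indirectly, in a heterozygous mutant of a SWI/SNF component. The same morning trio was higher, and here PRR5 and FKF1 were the lower members, so again 5 of the 7 were listed. Of 25877 features tested, 1.87% were listed as higher and 0.556% as lower, and here too the calls chose the members. CCA1 was at 6.77 RPKM in swi3b +/- against 2.24 RPKM in Col-0 in the authors' deposited table, 3.02-fold higher (q = 3.97e-08). LNK1 was at 9.56 RPKM in swi3b +/- against 3.98 RPKM in Col-0 in the authors' deposited table, 2.40-fold higher (q = 1.36e-06). LNK2 had 69.9 RPKM in swi3b +/- and 40.1 RPKM in Col-0 in the authors' deposited table, 1.74-fold higher (q = 0.00283). By fold, CCA1 stood 95th, LNK1 169th and LNK2 407th of the 471 protein-coding genes listed as higher with both values above 0, whose median fold was 2.18.

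PRR5, the repressor of CCA1 and the most abundant member in Col-0, was at 39.6 RPKM in swi3b +/- against 83.9 RPKM in Col-0 in the authors' deposited table, 47.2% of the Col-0 level (q = 5.37e-06). FKF1 was at 13.0 RPKM in swi3b +/- against 27.0 RPKM in Col-0 in the authors' deposited table, 48.3% of the Col-0 level (q = 6.99e-05). The pair stood 32nd and 38th of 119 listed lower genes by fold (median fold 1.86). LNK2 was at 1.77 times the RPKM level of PRR5 in swi3b +/- and at 0.478 times in Col-0 in the authors' deposited table. CCA1 was at 0.520 times the level of FKF1 in swi3b +/- and at 0.0831 times in Col-0 in the authors' deposited table.

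**Figure D2:**
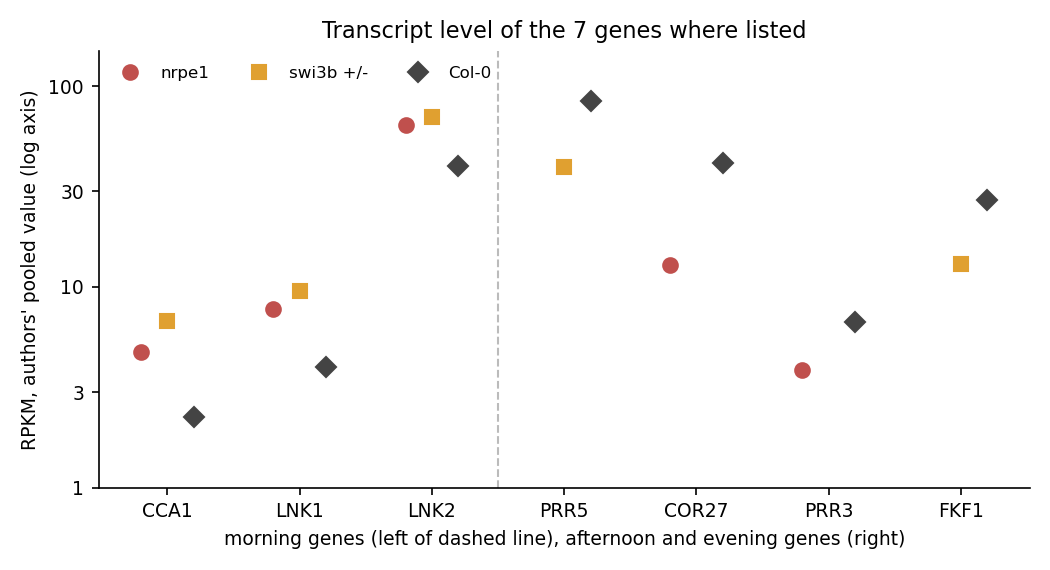
RPKM level (vertical log axis) of each member in nrpe1 (circles), swi3b +/- (squares) and Col-0 (diamonds), drawn where the authors' deposited tables list the gene, 1 pooled value per genotype. For CCA1, LNK1 and LNK2 both mutants lie above Col-0, and for PRR5, COR27, PRR3 and FKF1 the single listed mutant lies below it.

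Both comparisons use the same Col-0 libraries: all 165 features present in both tables have the same Col-0 value. The folds of the members in nrpe1 and swi3b +/- are therefore given side by side and are not independent of each other. For each of the morning trio the level was higher in swi3b +/- than in nrpe1, by 1.43 times for CCA1, 1.23 times for LNK1 and 1.09 times for LNK2, by the RPKM values of the authors' deposited tables. Whether nrpe1 and swi3b +/- differ in these levels was not tested, since no replicate values are used here. Only CCA1, LNK1 and LNK2 are listed in both mutants, each as higher. The direction of the other members can be given in 1 mutant only and cannot be compared. The lower members do not coincide: COR27 and PRR3 are listed in nrpe1 and not in swi3b +/-, and PRR5 and FKF1 the other way round. Absence from a table is not evidence of an equal level. Among listed lower protein-coding genes with a Col-0 level within a factor of 2 of the member's, the smallest listed fold in swi3b +/- was 1.55 near the level of COR27 and 1.68 near that of PRR3. In nrpe1 it was 1.47 near the levels of both PRR5 and FKF1. Whether the mutants differ in these 4 genes was not tested.

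Setting idn2-1 against Col-0 addresses which genes differ in level, directly or indirectly, in a mutant of IDN2. None of the 7 members was listed in idn2-1 (0 higher and 0 lower). In this comparison 1.24% of 27755 tested features were listed as higher and 1.95% as lower. No p-value of a member against Col-0 in idn2-1 is used here, so a count at an unadjusted threshold cannot be given. Among genes with a Col-0 level within a factor of 2 of the member's, the smallest fold listed as higher in idn2-1 was 1.96 near CCA1, 1.89 near LNK1 and 1.88 near LNK2. The smallest fold listed as lower was 1.86 near COR27, PRR3 and FKF1 and 1.87 near PRR5. The folds of LNK2 in both other mutants and of PRR3 in nrpe1 are smaller than these, and no gene of like level was listed at that size. Those of CCA1, LNK1, COR27, PRR5 and FKF1 are larger. A smallest listed fold is not a limit of detection, so a larger fold need not have been listed in idn2-1. CDF1, a clock output gene at 2.01 RPKM in Col-0, was 2.09-fold higher in idn2-1 with q = 0.0461 in the authors' deposited table. Absence of the members there is not evidence of an equal level.

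**Figure D3:**
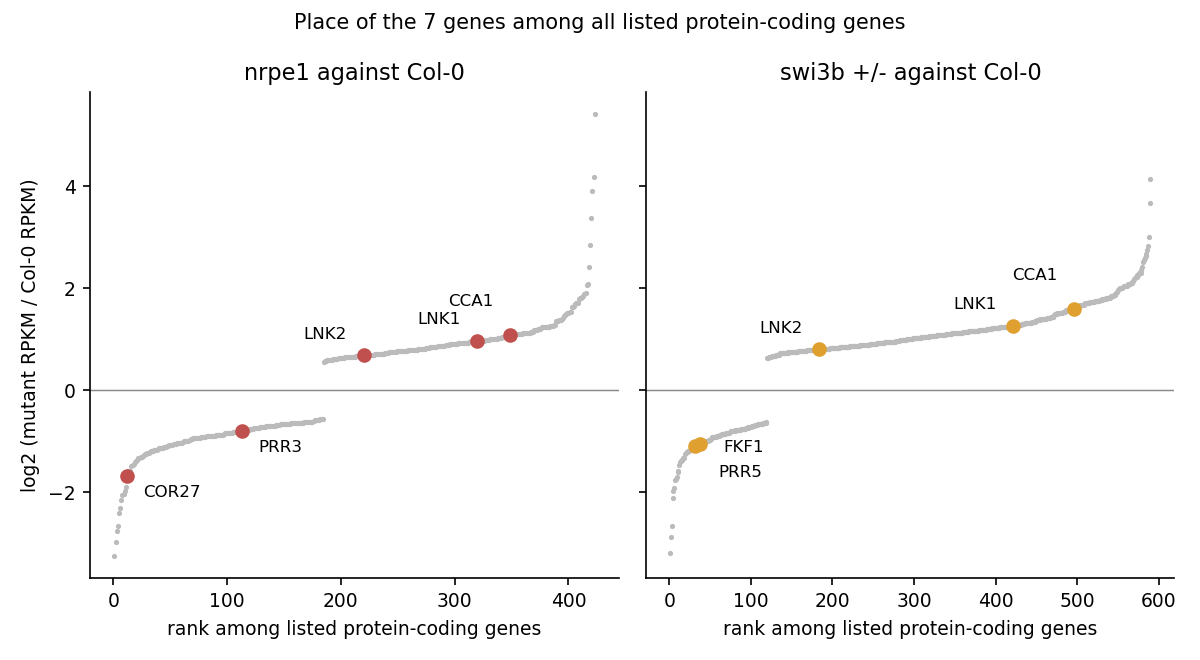
log2 fold (mutant over Col-0) of listed protein-coding genes with both values above 0, in rank order (horizontal axis), for nrpe1 (left) and swi3b +/- (right), with the members as large coloured points. COR27 lies near the low end in nrpe1 at -1.68. In swi3b +/- PRR5 (-1.08) and FKF1 (-1.05) lie toward the low end, at ranks 32 and 38. The remaining members lie along the flatter part of each curve.

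Other clock genes were counted from a list of 26 genes of the morning, pseudo-response regulator and evening groups, which includes the members. In nrpe1 6 of the 26 were listed, 4 higher and 2 lower, where 1.88% of tested features were listed in either direction. In swi3b +/- 6 were listed, 4 higher and 2 lower, beside 2.43% of features, and in idn2-1 1 was listed, as higher, beside 3.18%. Without the members, 1 of 19 was listed in each of the 3 mutants, so most of the list was not listed anywhere. LHY, the close partner of CCA1, TOC1 of the pseudo-response regulator group, and GI, ELF3, ELF4 and LUX of the evening group were in none of the tables.

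The additional listed genes were all of the LNK family. LNK4 was at 45.3 RPKM in nrpe1 against 26.3 RPKM in Col-0 in the authors' deposited table, 1.72-fold higher (q = 0.00119). LNK3 was at 9.41 RPKM in swi3b +/- against 4.61 RPKM in Col-0 in the authors' deposited table, 2.04-fold higher (q = 0.00366). In idn2-1, whose table has Col-0 values of its own, LNK3 was at 9.75 RPKM against 4.60 RPKM in Col-0 in the authors' deposited table, 2.12-fold higher (q = 0.0182). LNK1 and LNK2 are members chosen by these calls, so their direction adds nothing on the family. Outside the members, LNK4 was listed in nrpe1 alone and LNK3 in swi3b +/- and idn2-1, each time as higher. LNK3 has a pair of G-boxes, beginning at -171 and -141, and LNK4 had no match to the 4 motifs in the same window.

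Of 11 clock output genes, only CDF1 was listed in any of the tables, and it was higher in all 3. The shares of all tested features listed were 1.88% in nrpe1, 2.43% in swi3b +/- and 3.18% in idn2-1. CDF1 is a DOF repressor of the flowering gene CO and a target of FKF1. It was at 11.1 RPKM in swi3b +/- against 2.31 RPKM in Col-0 in the authors' deposited table, 4.80-fold higher (q = 1.80e-13). CDF1 was 1.94-fold higher in nrpe1 (q = 0.0303) and 2.09-fold higher in idn2-1 (q = 0.0461) in the authors' deposited tables. In swi3b +/- CDF1 was higher and FKF1 lower, while in nrpe1 and idn2-1 FKF1 was not listed. Whether the changes of CDF1 and FKF1 transcripts are linked was not tested. CO and FT, the flowering genes that CDF1 acts on, were in none of the tables, nor was any of 5 photoreceptor genes.

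A further gene, AT4G33980, has no name in the annotation used, which gives COR27 as its closest Arabidopsis protein match. It was meant as a member of the evening group, and because the annotation does not give its name it is outside the list counts, to which it would add 1 lower gene in nrpe1 and 1 in swi3b +/-. It was at 23.4 RPKM in nrpe1 against 56.8 RPKM in Col-0 in the authors' deposited table, 2.43-fold lower (q = 1.67e-10). In swi3b +/- it was at 28.0 RPKM against 56.8 RPKM in Col-0 in the authors' deposited table, 2.03-fold lower (q = 3.33e-05). AT4G33980 was thus listed as lower in both mutants, where COR27 was listed as lower in nrpe1 alone. Its window holds a CCA1 binding site beginning at -143 and an evening element beginning at 32.

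**Figure D4:**
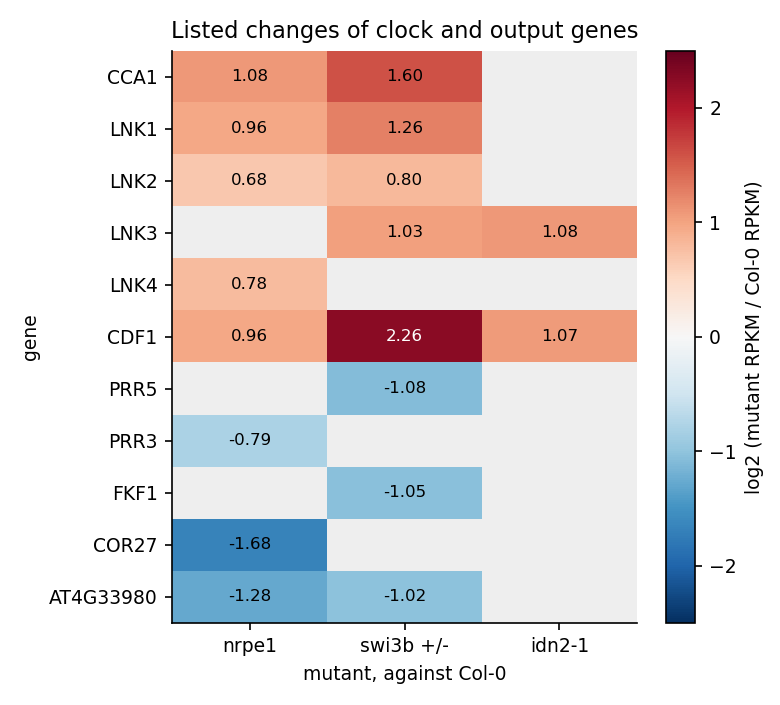
log2 fold (mutant RPKM over Col-0 RPKM, colour and number) of the members and of the other listed clock and output genes in nrpe1, swi3b +/- and idn2-1, from the authors' deposited tables; grey means not listed. The LNK genes, CCA1 and CDF1 are red wherever listed, PRR5, PRR3, FKF1, COR27 and AT4G33980 are blue wherever listed, and idn2-1 has 2 filled cells.

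COR27 is also a cold-regulated gene, and cold genes were counted beside it. Of 9 such genes 1 was listed in nrpe1, 1 in swi3b +/- and 0 in idn2-1, beside 1.88%, 2.43% and 3.18% of all tested features. COR15B, which encodes a chloroplast protein that protects against freezing, was at 160.3 RPKM in nrpe1 against 239.8 RPKM in Col-0 in the authors' deposited table, 1.50-fold lower (q = 0.0332). CBF2, a transcription factor that activates cold genes, was at 16.2 RPKM in swi3b +/- against 7.40 RPKM in Col-0 in the authors' deposited table, 2.19-fold higher (q = 0.00187). The other cold genes, with CBF1, CBF3, COR15A and RD29A among them, were in none of the tables.

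Genes that respond to handling and to darkness were counted beside the members. For the counts in this paragraph, the shares of all tested features listed were 1.88% in nrpe1, 2.43% in swi3b +/- and 3.18% in idn2-1. All 3 touch genes, TCH2, TCH3 and TCH4, were higher in all 3 mutants, by 1.69-fold to 2.59-fold in nrpe1, 1.66-fold to 4.11-fold in swi3b +/- and 2.37-fold to 2.99-fold in idn2-1 in the authors' deposited tables. Of 4 darkness-induced genes 0 were listed in nrpe1, 3 were lower in swi3b +/- and 2 were lower in idn2-1. SEN1, the most abundant of these, was 2.99-fold lower in swi3b +/- and 3.46-fold lower in idn2-1 in the authors' deposited tables. No member was listed in idn2-1, which is not evidence of an equal level there. The part of handling and of darkness in the changes of the members was not tested. Of organ markers, 1 of 5 leaf genes (RBCS1B, 2.17-fold higher in idn2-1 in the authors' deposited table), 0 of 2 root genes and 0 of 4 flower genes were listed. In whole seedlings fewer cells of a type and less RNA per cell cannot be told apart.

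The genes whose changes were most like those of CCA1 and COR27 were found by the distance between log2 folds over the tables in which the member is listed. Of 76 protein-coding genes higher in nrpe1 and swi3b +/- and not listed in idn2-1, SNZ, an AP2-type repressor of flowering, was nearest to CCA1 at a distance of 0.0183. SNZ was 2.12-fold higher in nrpe1 and 2.98-fold higher in swi3b +/- in the authors' deposited tables. The MYB factor gene MYBR1 and the tetraspanin gene TET8 followed at distances of 0.123 and 0.129. For COR27, lower in nrpe1 alone, AT1G56090, AT3G59930 and PDF1.4 were nearest of 132 genes, at distances of 0.0939, 0.196 and 0.268. These distances rest on 2 folds for CCA1 and a single fold for COR27.

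The loci and neighbours of the members set limits on what was counted. The deposited locus of LNK2 spans 5409 bases on chromosome 3, from 20173619 to 20179027, of which 1844 are shared with the neighbouring gene RPB5E and 221 and 266 with the lncRNA genes AT3G08400 and AT3G08405. Reads of LNK2 and of these genes may not be separate in its value. The locus of LNK1 (chromosome 5, 25672466 to 25676746) shares 245 bases with AT5G64160, and that of FKF1 (chromosome 1, 25508676 to 25510889) shares 3 bases with MAP70-1. The loci of CCA1 (chromosome 2, 19245672 to 19248914) and, on chromosome 5, of PRR5 (8355951 to 8358873), COR27 (17197233 to 17199793) and PRR3 (24197998 to 24201404) overlap no other annotated gene. Within 10 kb of the members lie 55 other annotated genes, of which 1, AT5G42880 near COR27, was listed in a table, that of idn2-1. No listed transposable element lay within 10 kb of any member. None of the 55 genes was listed in nrpe1 or swi3b +/-, where 1.88% and 2.43% of all tested features were listed. At shares this low few of 55 genes would be listed in any case, so nothing is read from that absence.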

How the data were processed

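RNA-seq of 12 seedling samples, 3 per genotype, was used as 3 tables of the authors' own comparisons. The deposited columns are, per the file headers, a pooled RPKM value for the mutant and for Col-0, a log2 fold change, and a p-value and q-value. TopHat, Cufflinks and TAIR10 are named in the submitters' processing notes. Their versions and how the deposited q-value was computed are not given in the sources used here. In the authors' tables the largest q was 0.0499, 0.0497 and 0.0499 for nrpe1, swi3b +/- and idn2-1, and the deposited log2 values differ from those recomputed from RPKM by at most 1.24e-05. Features at 0 in a genotype carry a placeholder in place of a log2 value and were left out of fold ranks.

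No gene was tested anew, no replicate could be left out, and depth is unknown. The number of features tested was solved from the deposited p and q by the Benjamini-Hochberg formula. Both this step and the motif search were tested on simulated data. Columns without a group numbered 0.

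The members and lists were chosen with earlier results of these data known. Of 72 list genes 69 were used, and 3 for which RefSeq does not pair the name with the identifier were left out. Named genes are the members, all listed genes of the lists, and the 3 protein-coding genes nearest in log2 fold to CCA1 and COR27; AT4G33980 is a list gene among those left out, given by its identifier, and JMJD5, in the closing section, was added after its values were seen. Coordinates of loci are the tables' own on TAIR10, 1-based. Gene names, starts and sequence came from RefSeq on TAIR10.1, and each member matched by identifier. The promoter of COR27 is not reported here. Python 3.11.15, pandas 2.3.3, numpy 2.4.6 and matplotlib 3.10.9 were used. Alternatives were q below 0.01, Bonferroni, a 2-fold minimum, a level of at least 5 RPKM, 1 RPKM added to both values, subtraction of the median log2 fold, and other promoter windows.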

Additional observations from a re-analysis of the deposited data

How the results depend on the processing

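The count of members listed in nrpe1 fell to 2 of 7 under a Bonferroni adjustment (LNK1 and COR27) and to 2 at a 2-fold minimum (CCA1 and COR27), against 5 in the authors' deposited table. The count of clock list genes in nrpe1 fell to 2 at a 2-fold minimum, and that in idn2-1 to 0 at q below 0.01. The count of members with a G-box fell to 1 when only the 250 bases before the start were searched, since those of LNK1 and LNK2 lie at or after it, and to 1 when the 1000 bases before it were searched. The other 18 recomputed counts stayed within 1.5 times, among them all 4 for the members in swi3b +/-. The 18 include those for the members in idn2-1, which began at 0 and could not fall under a stricter setting. Subtracting the median log2 fold of listed protein-coding genes, 1.01 in swi3b +/-, turned LNK2 there to -0.21 and left LNK1 there at 0.26 and LNK2 in nrpe1 at 0.02. This constant is the median of genes chosen by their q-value and most of these are higher, so the shift says nothing about the stability of a fold. Adding 1 RPKM to both values cannot change the direction of a fold, only its size. It took the log2 fold of CCA1, the member with the lowest Col-0 level, from 1.08 to 0.82 in nrpe1. In swi3b +/- it took that of CCA1 from 1.60 to 1.26. Searching the 1000 bases before the start, or from the start of the deposited locus, was chosen after seeing the data. The 1000 bases include the 250 searched before, so PRR5 and FKF1 could not lose their evening element there. From the start of the deposited locus, FKF1 had the same evening elements, beginning at -223 and -37 from that start. PRR5 had a different one there, beginning at 36, and its element at -187 from the gene start lay outside that window. CCA1 had no G-box in the window of the deposited locus. No paired analysis was possible because the tables hold 1 pooled value per genotype, and for the same reason no replicate could be left out.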

Other observations

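JMJD5 (AT3G20810), a jumonji gene that acts with the clock and peaks in the evening, was chosen here after its values were seen. It was at 6.71 RPKM in nrpe1 against 17.5 RPKM in Col-0 in the authors' deposited table, 2.60-fold lower (q = 1.42e-09), and was in neither of the other tables.

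The evening element was counted over all listed protein-coding genes in the window from 250 bases before to 50 after the start. It was present in 7.45% of 188 genes lower in nrpe1, 5.56% of 126 lower in swi3b +/- and 3.02% of 397 lower in idn2-1, beside 2.82% of all protein-coding genes. Among genes listed as higher the shares were 5.65% of 248 in nrpe1, 4.64% of 474 in swi3b +/- and 2.14% of 281 in idn2-1. The G-box was present in 10.1% of the genes higher in nrpe1, 12.0% in swi3b +/- and 4.27% in idn2-1, beside 7.68% of all. Among lower genes its shares were 4.26%, 7.14% and 8.31% in nrpe1, swi3b +/- and idn2-1. These shares are descriptions without a test, and the lists include the members.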
